A study of Rattus norvegicus with 12 samples.

Results

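The genes described here make bile acids from cholesterol in the liver, or control that synthesis. They were chosen by symbol: 10 genes with known roles in the classical and alternative pathways, in ring and side-chain processing, in conjugation and in feedback control by FXR and SHP. All 10 were present among the 16478 gene rows of the count files, and all 10 passed the filter on low counts that left 9943 genes for testing. The samples were livers of 6 female and 6 male ZSF1 rats, all obese, 16 weeks old and untreated, with 1 RNA library per animal. Obese ZSF1 rats carry a defective leptin receptor allele from each parent strain, so both sexes share that defect, and lean animals were not analysed here. The study's question was the difference between female and male liver in its gene transcripts.

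Bile acids are detergents that hepatocytes make from cholesterol and secrete into bile, where they help to absorb dietary fat. In the classical pathway Cyp7a1 sets the rate with its 7-alpha-hydroxylation of cholesterol, and Cyp8b1, the sterol 12-alpha-hydroxylase, steers the product toward cholic acid. The alternative pathway starts with Cyp27a1 in mitochondria and continues through the oxysterol hydroxylase Cyp7b1. Returning bile acids activate the nuclear receptor FXR, encoded by Nr1h4, which induces SHP, encoded by Nr0b2. SHP has no DNA-binding domain, and it represses Cyp7a1 and Cyp8b1 by acting on factors such as LRH-1 and HNF4A.

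Female libraries held 6763879 to 24837602 counts over genes and male libraries 11381428 to 29232871. Hepatocyte markers were abundant in both sexes, with the 11 measured markers summing to 246817 to 326332 CPM (counts scaled to 1000000 per library) in females and 212808 to 271582 CPM in males. The levels of 2 P450 genes known to be sex-specific in rat liver followed the sex labels: Cyp2c12 stood at 5882 to 7176 CPM in females and 81.0 to 121 CPM in males, and Cyp2c11 at 4.79 to 12.1 CPM in females and 2024 to 3408 CPM in males. Male 4 stood apart in the acute phase genes, with 9559 CPM of Orm1 where the other males had 1359 to 1599 CPM. Males carry the animal numbers 1 to 6 and females 7 to 13, so a batch that followed these numbers cannot be told apart from sex.

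Of the 10 genes, 6 were lower in females than in males and 0 were higher in females, at a Benjamini-Hochberg adjusted p under 0.05 in edgeR's quasi-likelihood test. Over all genes tested the shares were 22.7% lower in females and 20.5% higher in females. At an unadjusted p under 0.05, 0 of the 10 genes were higher in females, and DESeq2 and limma-voom called 0 as well. The 6 lower genes were Cyp8b1, Akr1d1, Cyp7b1, Amacr, Baat and Nr0b2, and the 4 that did not pass were Cyp7a1, Cyp27a1, Slc27a5 and Nr1h4. In 4 genes (Akr1d1, Cyp7b1, Amacr and Baat) no female reached the lowest male. Groups that did not overlap in either direction were seen for 22.8% of all tested genes, 12.8% with females lower and 10.1% with females higher. The median log2 fold change (females over males) was -0.66 over the 10 genes and -0.01 over all tested genes. In whole liver, fewer cells of a type and less RNA per cell cannot be told apart.

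**Figure D1:**
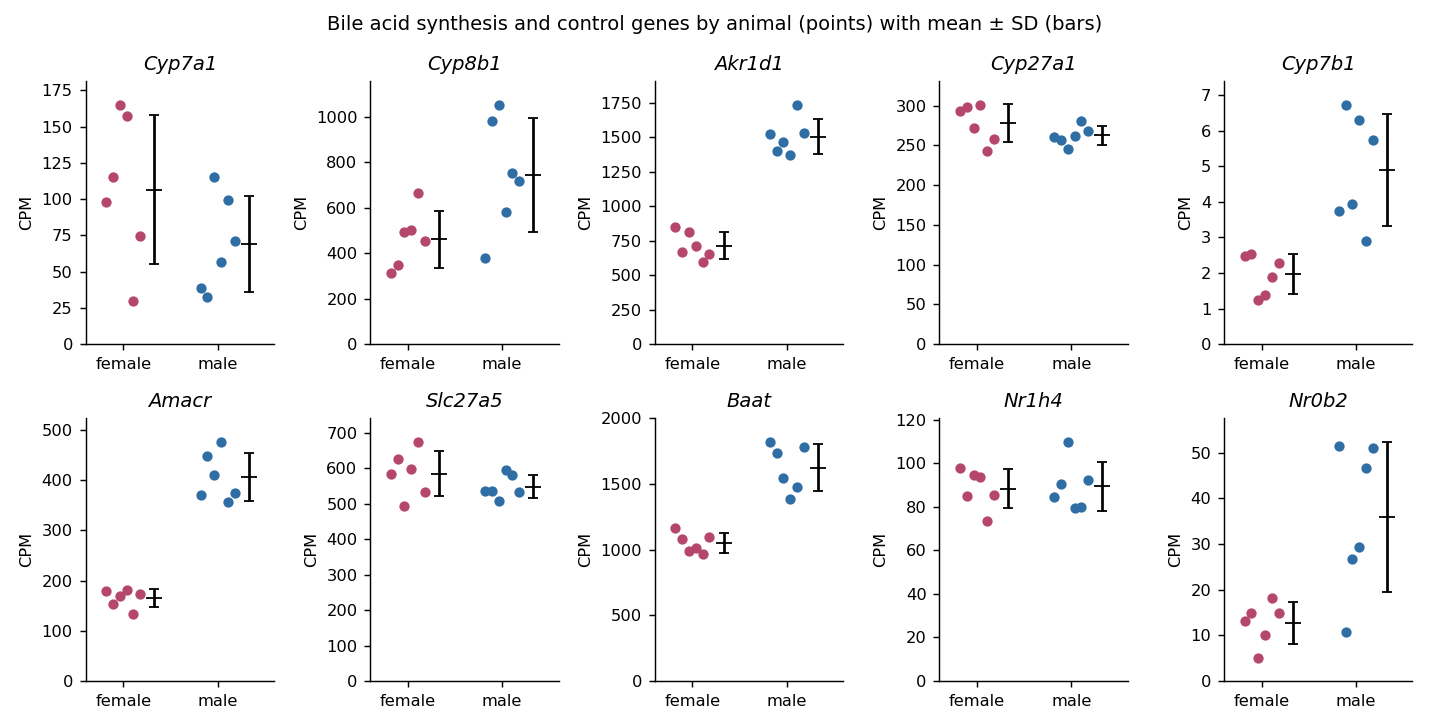
Level of each of the 10 genes in CPM (vertical axes from 0), with 1 point per animal, females left and males right; the bars give the mean ± SD of 6 animals. Akr1d1, Cyp7b1, Amacr and Baat separate the sexes without overlap, Cyp7a1 spreads widely in both, and Cyp27a1, Slc27a5 and Nr1h4 lie at similar levels.

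The first enzyme of the classical pathway varied more among animals of 1 sex than between the sexes. Cyp7a1 ran from 29.6 CPM in female 12 through a median of 107 to 165 CPM in female 9, against 32.2 CPM in male 2, a median of 63.9 and 115 CPM in male 3. The ranges overlapped almost fully, and 2 females (9 and 10) lay above every male. The mean was 107 ± 51.1 CPM in females and 69.0 ± 33.1 CPM in males (SD, n = 6 each), and the log2 fold change of 0.62 (SE 0.416) did not pass (edgeR adjusted p = 0.252). The 95% interval of the female to male ratio, 0.820 to 2.90, leaves room for a difference in either direction. The coefficient of variation of Cyp7a1 was 48.0% in each sex, the highest of the 10 genes, while that of Cyp27a1 was 8.54% in females and 4.44% in males.

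The next classical enzyme, Cyp8b1, was lower in females. It ran from 313 CPM through a median of 473 to 664 CPM in females, against 378, 735 and 1051 CPM in males. The ranges overlapped: 4 males exceeded every female, and male 1, at 378 CPM, lay among the lower females. The mean was 462 ± 125 CPM in females and 743 ± 249 CPM in males (SD, n = 6 each), a 1.61-fold lower level in females (log2 -0.69, SE 0.241, edgeR adjusted p = 0.0353). This was the least secure of the 6 differences. It kept its direction in every alternative tried, but the adjusted p rose above 0.05 when any 1 of females 7, 8, 9, 10 and 13 or males 2, 3, 5 and 6 was left out, to at most 0.0754.

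Akr1d1, the steroid 5-beta-reductase that bends the sterol ring into its bile acid shape, separated the sexes cleanly. Its levels were 597 to 850 CPM in females (median 690) and 1374 to 1734 CPM in males (median 1496). No female came near the lowest male, male 4. The level was 2.11-fold lower in females (log2 -1.07, SE 0.0954, edgeR adjusted p = 7.42e-07).

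The alternative pathway split between its entry enzyme and the next step. Cyp27a1, the mitochondrial sterol 27-hydroxylase, stood at 278 ± 23.7 CPM in females and 263 ± 11.7 CPM in males (SD, n = 6 each). It did not pass the test (log2 fold change 0.08, SE 0.0653, edgeR adjusted p = 0.337), and the 95% interval of the female to male ratio was narrow, at 0.961 to 1.17. Cyp7b1, the oxysterol 7-alpha-hydroxylase, ran from 1.25 CPM through a median of 2.08 to 2.55 CPM in females, against 2.90, 4.84 and 6.72 CPM in males. The highest female thus lay just under the lowest male, male 5. Cyp7b1 was 2.49-fold lower in females (log2 -1.31, SE 0.234, edgeR adjusted p = 0.00045). It was the scarcest transcript of the 10, with 9 to 164 counts in a library, so each animal's value carries more counting error than those of the other genes.

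Amacr, the racemase that turns the side chain into the form that peroxisomes can shorten, was also lower in females. Its levels were 133 to 181 CPM in females (median 172) and 357 to 477 CPM in males (median 393). The groups were far apart compared with their spread, and the level was 2.46-fold lower in females (log2 -1.30, SE 0.0936, edgeR adjusted p = 8.59e-08). Conjugation to taurine or glycine takes a pair of enzymes, and they differed. Slc27a5, the bile acyl-CoA synthetase that activates the acid, stood at 586 ± 64.8 CPM in females and 549 ± 33.5 CPM in males (SD, n = 6 each; edgeR adjusted p = 0.36). The 95% interval of its female to male ratio was 0.950 to 1.199. Baat, the acyltransferase that adds the amino acid, stood at 967 to 1163 CPM in females (median 1045) and 1385 to 1823 CPM in males (median 1639). Every female lay below every male, and Baat was 1.55-fold lower in females (log2 -0.63, SE 0.0845, edgeR adjusted p = 4.12e-05).

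**Figure D2:**
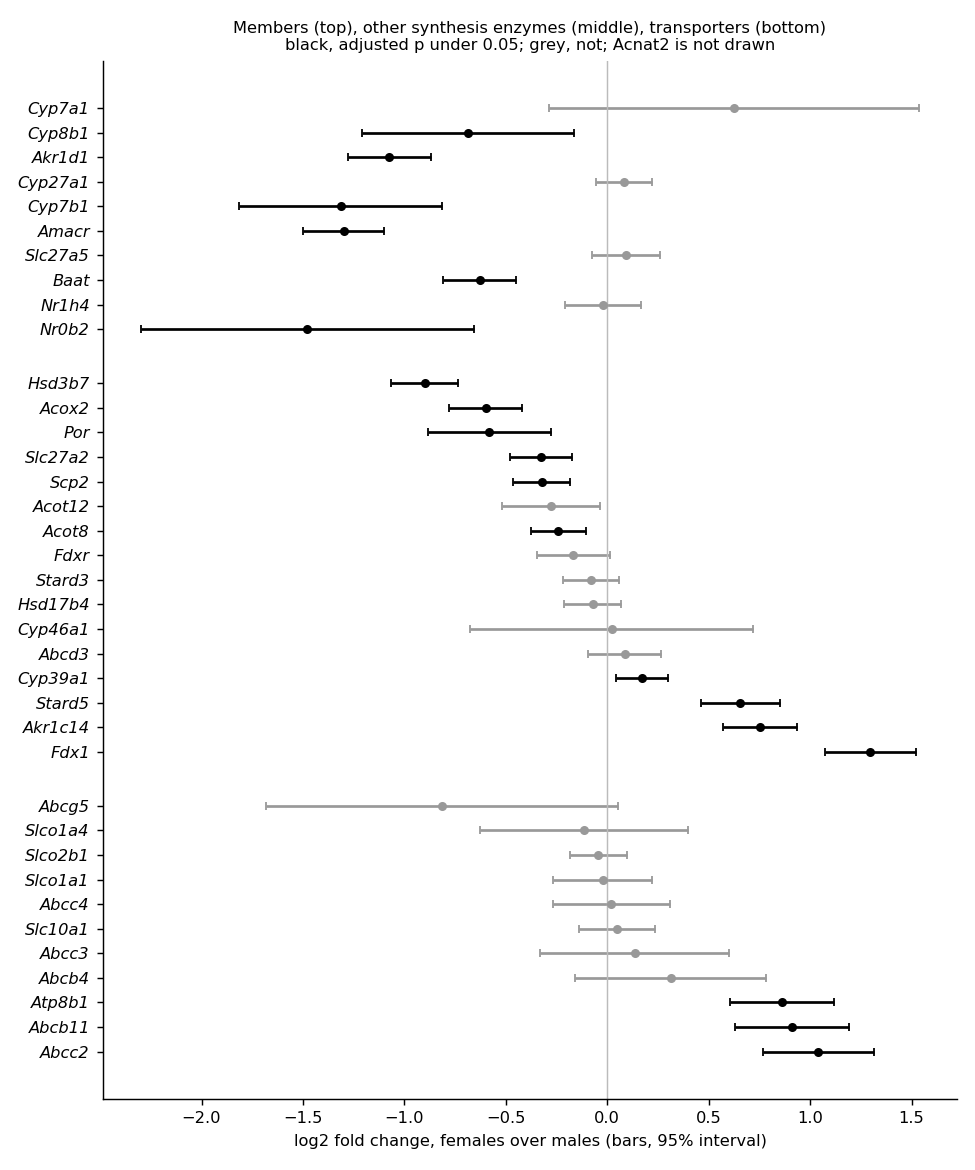
Log2 fold change of females over males (horizontal axis) with its 95% interval for the 10 genes, 16 other synthesis enzymes and 11 transporters; black points passed an adjusted p of 0.05. Of the 10 genes, the 6 that passed lie left of 0, and Nr1h4 lies close to 0 (-0.02). Points of Cyp7a1, Cyp27a1 and Slc27a5 lie right of 0, with intervals that cross it. The transporters that passed (Abcc2, Abcb11 and Atp8b1) lie right of 0, and Acnat2 is not drawn.

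In the control loop the transcripts of the receptor FXR and of SHP differed in behaviour. Nr1h4 stood at 88.3 ± 8.93 CPM in females and 89.4 ± 11.3 CPM in males (SD, n = 6 each; log2 fold change -0.02, SE 0.0871, edgeR adjusted p = 0.872), with a 95% interval of 0.867 to 1.122 for the female to male ratio. Nr0b2 ran from 4.99 CPM in female 9 through a median of 14.0 to 18.1 CPM in female 12, against 10.8 CPM in male 2, a median of 37.9 and 51.5 CPM in male 1. Male 2 was the only male inside the female range, and the other 5 males exceeded every female. Nr0b2 was 2.79-fold lower in females (log2 -1.48, SE 0.374, edgeR adjusted p = 0.0077), the widest difference of the 10 genes, and it passed in each alternative tried (adjusted p at most 0.0267).

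Promoter sequence was looked at because SHP, LRH-1 and HNF4A act there on genes of this pathway. RefSeq start sites on GRCr8 gave windows of the 250 bases before the start for 6 of the 10 genes. The start used for Amacr and for Cyp27a1 lay inside the annotated span of the gene, so that 44 bases of the Amacr window and all 250 of the Cyp27a1 window overlap it. The windows of the other 3 genes that were lower in females are printed, in lower case and 5′ to 3′ along the gene. Capitals mark CAAGG on either strand, the core of the LRH-1 recognition sequence.
Nr0b2, chr5:151062910-151063159, plus strand: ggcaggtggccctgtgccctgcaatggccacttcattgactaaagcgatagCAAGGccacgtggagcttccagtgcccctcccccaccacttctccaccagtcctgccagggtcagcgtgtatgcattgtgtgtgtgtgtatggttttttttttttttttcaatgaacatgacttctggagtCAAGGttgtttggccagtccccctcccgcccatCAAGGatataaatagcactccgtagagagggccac
Cyp8b1, chr8:130457593-130457842, minus strand: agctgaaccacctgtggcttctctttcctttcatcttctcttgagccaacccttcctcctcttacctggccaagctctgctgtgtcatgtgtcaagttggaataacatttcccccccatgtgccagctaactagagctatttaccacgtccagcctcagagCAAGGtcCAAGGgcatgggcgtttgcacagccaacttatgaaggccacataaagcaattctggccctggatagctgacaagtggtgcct
Baat, chr5:68656138-68656387, minus strand: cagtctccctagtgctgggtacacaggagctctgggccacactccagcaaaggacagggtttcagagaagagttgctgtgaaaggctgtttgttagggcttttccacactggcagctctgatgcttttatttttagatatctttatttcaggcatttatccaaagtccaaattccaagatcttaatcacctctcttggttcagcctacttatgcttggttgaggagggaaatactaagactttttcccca

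The Nr0b2 window holds the core 3 times, starting at positions -199, -68 and -35 counted back from the start site, and the Cyp8b1 window 2 times, at -89 and -82. Amacr holds it 1 time, at -242, and the Baat window holds none. Among the genes that did not pass, the Cyp27a1 window holds 1 core and the Slc27a5 window none. Of 33469 RefSeq promoter windows of this length, 46.3% hold at least 1 core, 13.6% at least 2 and 3.02% at least 3. The longer form CAAGGNCA, which contains the core, is found in the windows of Nr0b2, Cyp8b1 and Cyp27a1 and in 5.58% of all windows. The classic FXR element is an inverted repeat of AGGTCA with 1 base between the arms. Its exact letters are in none of the 6 windows and in 0.0269% of all windows. At so low a rate, a lack of matches in 6 windows cannot show that these genes have no FXR element. Imperfect copies, and sequence farther from the start sites, were not searched. The STAT5 motif TTCNNNGAA is in the Nr0b2 and Baat windows and in 7.67% of all windows. These are matches of letters, searched on both strands and chosen with the sequences in view, and were not tested as binding sites.

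Ratios within an animal do not depend on its library depth, and 4 were compared between the sexes. A ratio of counts between genes also carries their lengths, so the difference between the sexes is given and not the balance of the enzymes itself. Nr0b2 counts over Nr1h4 counts ran from 0.0534 in female 9 to 0.248 in female 12, with a median of 0.154, against 0.119 in male 2 to 0.610 in male 1, with a median of 0.461. The mean log2 ratio was 1.42 lower in females (-2.90 in females and -1.48 in males), with a 2-sided exact permutation p of 0.0216 and an adjusted p of 0.0433 over the 4 ratios. Cyp7b1 over Cyp7a1 had a median of 0.0240 in females and 0.0891 in males, and its mean log2 ratio was 1.86 lower in females (exact permutation p = 0.0152, adjusted p = 0.0433). The sexes overlapped in both ratios. The adjusted p of the Nr0b2 to Nr1h4 ratio was above 0.05 (exact permutation, at most 0.0866) when any 1 animal but female 12 and males 2 and 3 was left out, and that of the Cyp7b1 to Cyp7a1 ratio when any but female 12 and male 3 was left out (at most 0.0866).

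Cyp8b1 over Cyp7a1 had a median of 3.18 in females and 9.88 in males. In 5 females the ratio was 2.98 to 6.10, below every male, whose lowest value was 7.55 in male 5. Female 12, at 22.4, lay above 5 of the 6 males. The mean log2 ratio was 1.23 lower in females (2-sided exact permutation p = 0.0390, adjusted p = 0.0519), and without female 12 it was 1.68 lower (exact permutation, adjusted p = 0.00866). Female 12 was the only female that overlapped the males, so leaving it out separates the sexes fully. With each animal left out in turn, the adjusted p was under 0.05 in this 1 of 12 cases only, and at most 0.127 (exact permutation). Cyp27a1 over Cyp7a1 had a median of 2.79 in females and 4.19 in males and did not pass (log2 difference -0.50, exact permutation p = 0.275, adjusted p = 0.275).

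**Figure D3:**
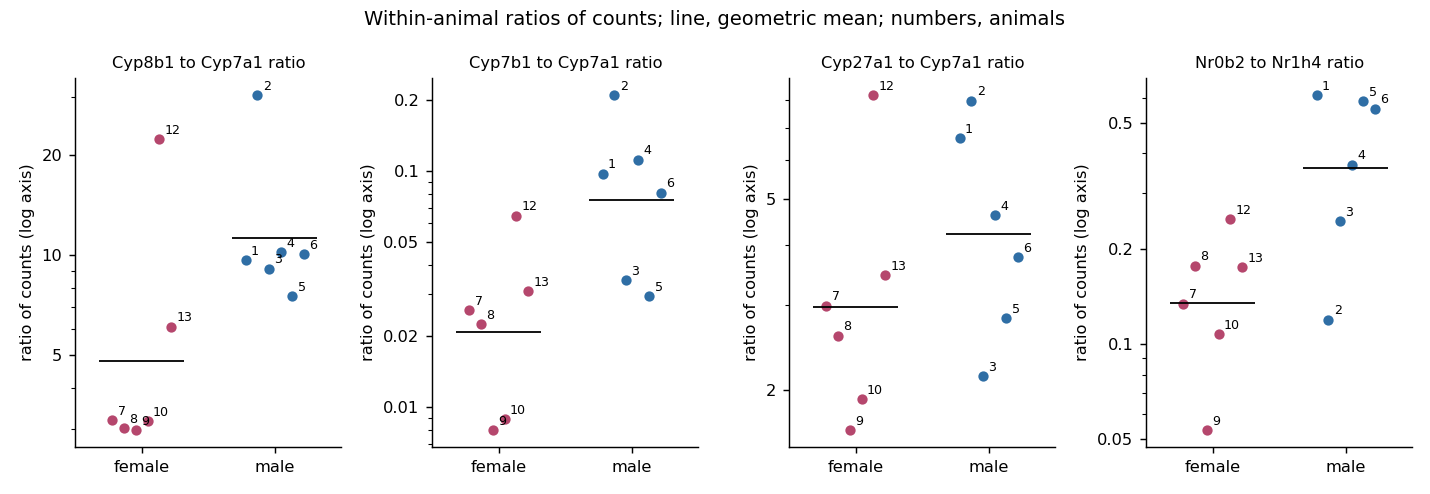
Ratio of counts of 2 genes within each animal (log axes), females left and males right, with the animal number beside each point and a line at the geometric mean of 6 animals. Female 12 and male 2 lie above the other animals of their sex in the ratio of Cyp8b1 to Cyp7a1, and male 2 is the male with the lowest Nr0b2 to Nr1h4 ratio.

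SHP represses Cyp7a1 and Cyp8b1, so Nr0b2 was set against both among animals of each sex, as was Nr1h4 against Nr0b2, on log2 CPM. In the 6 females Cyp7a1 was lower where Nr0b2 was higher, with Pearson r = -0.726 (exact permutation p = 0.129, adjusted p = 0.456 over 6 relations) and Spearman rho = -0.829 (exact permutation p = 0.0583, adjusted p = 0.175). Female 9 had the least Nr0b2 and the most Cyp7a1, and female 12 the most Nr0b2 and the least Cyp7a1. Without females 9 and 10, the farthest from the median of Nr0b2, r was -0.858 over the other 4. In the 6 males the same pair gave r = 0.417 (exact permutation p = 0.443, adjusted p = 0.665) and rho = 0.0286 (exact permutation p = 1, adjusted p = 1), and r = -0.0737 without males 1 and 2. None of the 6 relations passed after adjustment, and whether the sexes differ in this relation was not tested.

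Nr0b2 against Cyp8b1 gave r = -0.0336 (exact permutation p = 0.944, adjusted p = 0.944) and rho = 0.0857 (exact permutation p = 0.919, adjusted p = 1) in females, turning to 0.932 without females 9 and 10. In males it gave r = -0.600 (exact permutation p = 0.228, adjusted p = 0.456) and rho = -0.771 (exact permutation p = 0.103, adjusted p = 0.206), and -0.260 without males 1 and 2. Nr1h4 against Nr0b2 gave r = -0.639 (exact permutation p = 0.167, adjusted p = 0.456) and rho = -0.829 (exact permutation p = 0.0583, adjusted p = 0.175) in females, and -0.879 without females 7 and 12. In males it gave r = -0.257 (exact permutation p = 0.601, adjusted p = 0.722) and rho = -0.200 (exact permutation p = 0.714, adjusted p = 1), and -0.401 without males 3 and 4. The coefficient of FXR transcript with SHP transcript was negative in both sexes, without passing in either.

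**Figure D4:**
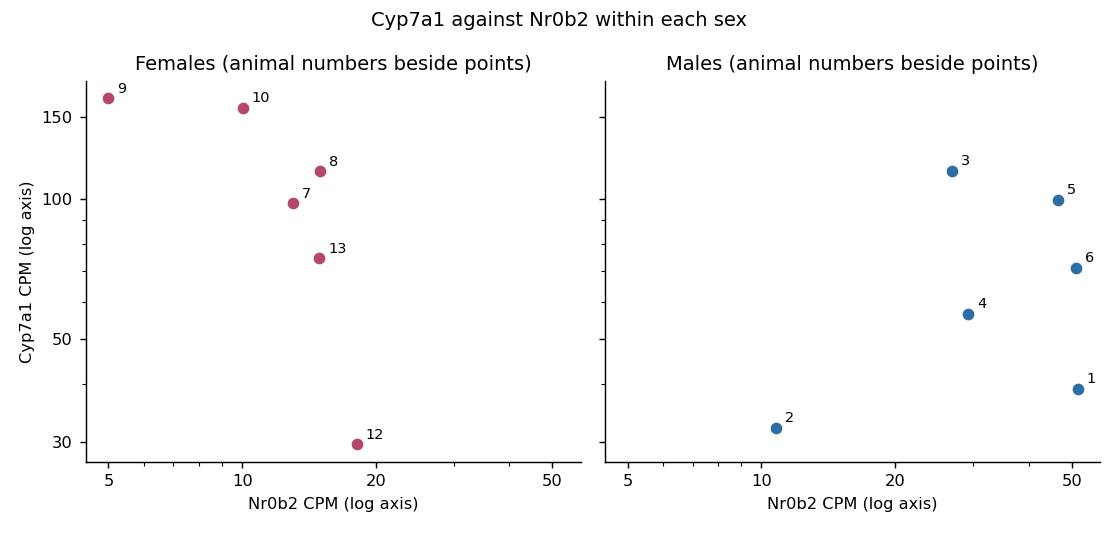
Cyp7a1 level against Nr0b2 level in CPM (both axes log), females in the left panel and males in the right, with animal numbers. Female 9 (4.99 CPM of Nr0b2, 165 CPM of Cyp7a1) and female 12 (18.1 and 29.6 CPM) are the ends of the female cloud, while males 1 and 2 share a low Cyp7a1 level at the 2 ends of the Nr0b2 range.

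The genes whose levels followed Cyp7a1, Cyp8b1 and Nr0b2 most closely were searched over 12 animals after each sex's mean was subtracted, among 7546 genes with a mean of at least 5 CPM. The measure was Pearson's r of log2 CPM, given as a description, and all points share their libraries. Cyp7a1 was followed by Timp3, a metalloproteinase inhibitor (r = 0.945), Ppp2r3a, a phosphatase subunit (0.902), and Hes6 (0.893). Timp3 itself was higher in females, at 6.69 to 15.5 CPM against 1.92 to 4.78 CPM in males, 3.79-fold by edgeR (adjusted p = 2.31e-05). Timp3 and Cyp7a1 had r = 0.991 among the 6 females and 0.904 among the 6 males. These are the same animals in which Timp3 was picked, so the 2 values are no separate evidence of a link. How high the top r of 7546 genes would be by chance was not tested. Cyp8b1 was followed by the sialyltransferase gene St8sia1 (r = 0.873), Uap1 (0.815) and Extl1 (0.815). The genes nearest to Nr0b2 were Lpar6, a lysophosphatidic acid receptor gene (r = 0.920), Oxr1 (0.878) and Fars2 (0.870).

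**Figure D5:**
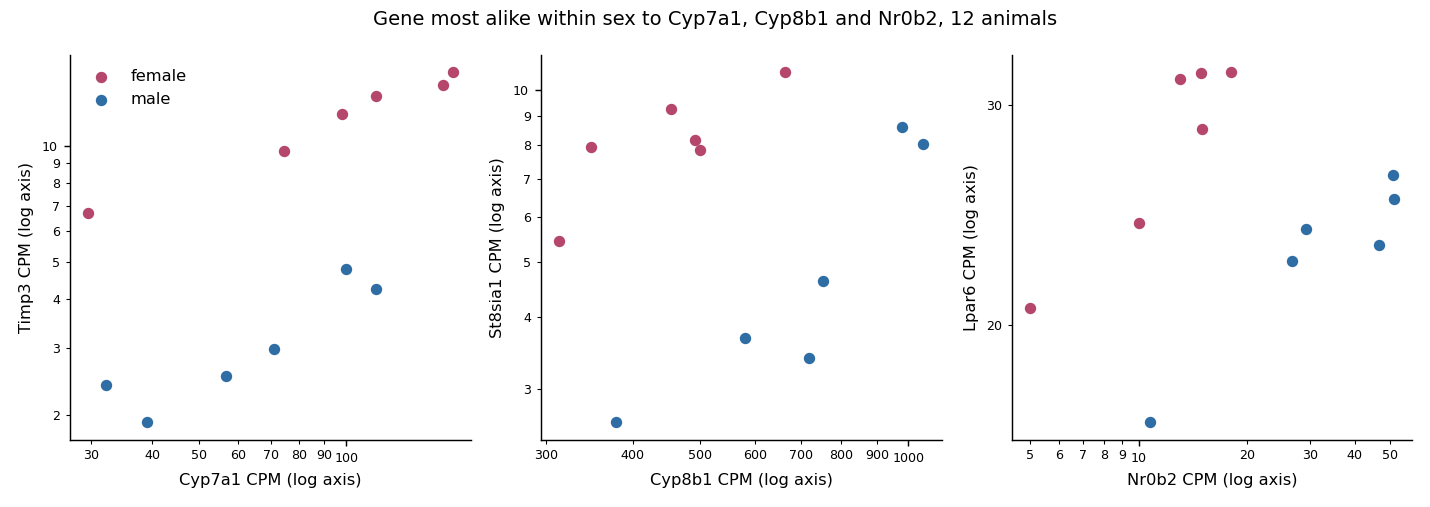
Level in CPM of the gene most alike to Cyp7a1, Cyp8b1 and Nr0b2 within sex (vertical axes) against that of each (horizontal axes), all log axes, with 1 point per animal. The Timp3 points of the sexes lie on separate levels, 6.69 to 15.5 CPM in females and 1.92 to 4.78 CPM in males.

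Other enzymes of the pathway that passed lay in both directions. Of 17 tested members of a list of 22 other synthesis enzymes and their partners, 7 were lower and 4 higher in females, and the median log2 fold change was -0.17. Over all tested genes 22.7% were lower and 20.5% higher in females, a share near that of the 4 higher enzymes. Acnat2, a peroxisomal acyltransferase gene related in sequence to Baat, ran from 0.243 to 0.903 CPM in females and from 22.5 to 146 CPM in males. That is a 124-fold lower level in females (log2 -6.95, SE 0.707, edgeR adjusted p = 1.61e-05), with a wide spread among males. How reads were divided between related acyltransferase genes was not given in the sources used here. Hsd3b7, which acts on the ring right after 7-alpha-hydroxylation, was 1.86-fold lower in females (60.5 to 83.7 CPM against 127.8 to 152 CPM in males, edgeR adjusted p = 5.46e-07).

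Akr1c14, the 3-alpha-hydroxysteroid dehydrogenase that follows Akr1d1, went the other way, 1.69-fold higher in females (1346 to 1710 CPM against 769.5 to 1067 CPM in males, edgeR adjusted p = 9.27e-06). Fdx1, the ferredoxin that hands electrons to mitochondrial P450s such as Cyp27a1, was 2.46-fold higher in females (61.1 to 92.7 CPM against 27.5 to 34.7 CPM in males, edgeR adjusted p = 3.65e-07). Among peroxisomal side-chain genes, Acox2 was 1.52-fold, Scp2 1.25-fold, Slc27a2 1.25-fold and Acot8 1.18-fold lower in females. Hsd17b4, the most abundant gene of the list that did not pass, had a median of 578 CPM in females and 612 CPM in males. Por, the reductase of microsomal P450s, was 1.497-fold lower in females. Cyp39a1 was 1.13-fold and Stard5 1.58-fold higher in females, though Cyp39a1 (edgeR adjusted p = 0.0314) no longer passed when female 7, 8 or 9 or male 2 or 6 was left out.

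Among the listed transporters the 3 that passed were higher in females. Slc10a2, a bile acid carrier counted with the bile duct and intestine markers and not here, was 14.1-fold lower in females (edgeR adjusted p = 1.19e-07). Of 11 tested members of the transporter list, 3 were higher in females (27.3%, near the 20.5% of all tested genes) and 0 lower, with a median log2 fold change of 0.05. In edgeR 0 transporters were lower in females at an unadjusted p under 0.05, in DESeq2 0 and in limma-voom 1 after adjustment. Abcb11, the bile salt export pump and a classic FXR target, had 150 to 205 CPM in females and 63.7 to 114 CPM in males, a 1.88-fold higher level in females (log2 0.91, SE 0.131, edgeR adjusted p = 8.98e-05). Abcc2, an organic anion export pump, was 2.06-fold and Atp8b1, a phospholipid flippase, 1.82-fold higher in females, and neither overlapped between the sexes. With Abcb11, 3 of the 11 tested transporters did not overlap, against 22.8% of all tested genes. Abcb11 thus lay in the opposite direction from Nr0b2, another classic FXR target. Slc10a1, the main sodium-dependent uptake carrier, had a median of 598 CPM in females and 567 CPM in males (edgeR adjusted p = 0.682). Of the other canalicular carriers, Abcb4, which moves phospholipid, had a log2 fold change of 0.31 (edgeR adjusted p = 0.269) and Abcg5, part of a sterol exporter, -0.81 (0.12), and Abcg5 was lower in females without female 12.

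Regulators of the pathway passed in 44.4% of cases, close to the 43.2% of all genes that passed in either direction. Of 27 tested members of a list of 35, 7 were higher and 5 lower in females, with a median log2 fold change of -0.05. Dbp, a clock-driven transcription factor reported to activate Cyp7a1 in rat, was 8.21-fold lower in females, and Nr1i3, the receptor CAR, was 7.05-fold lower. Onecut1 was 3.71-fold higher in females (log2 1.89, SE 0.572, edgeR adjusted p = 0.0191, and log2 2.60 with limma-voom). It spread widely among males, at 2.35 to 33.8 CPM, against 39.6 to 67.9 CPM in females. Its adjusted p was at most 0.0498 in the alternatives tried. Prox1, a corepressor reported to act on LRH-1 at Cyp7a1, was 1.52-fold higher in females. Hnf4a was 1.49-fold and Rxra, the partner of FXR, 1.29-fold higher in females, and the Rxra call was lost without male 4 and female 12 together (edgeR adjusted p = 0.054). Fgfr4, the receptor for the intestinal hormone FGF15, was 1.22-fold lower in females. Nr5a2, which encodes LRH-1, had a median of 25.9 CPM in females and 22.5 CPM in males and did not pass (edgeR adjusted p = 0.0717). Smarca2, the most abundant regulator that did not pass, had a median of 54.2 CPM in females and 46.7 CPM in males. Fgf15 was at 0 in all 12 libraries, where 3 counts would be 0.103 to 0.444 CPM.

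Cyp7a1 and Nr0b2 are rhythmic genes in rodent liver, and the labels give no collection time, so the clock genes were read beside them. Of 13 tested clock genes 5 were higher and 4 lower in females, 69.2% in either direction against 43.2% of all tested genes. Dbp stood at 3.58 to 16.2 CPM in females and 23.1 to 95.5 CPM in males, and Nr1d1 at 3.40 to 25.0 CPM in females and 28.5 to 68.9 CPM in males (3.01-fold lower in females). Arntl stood at 31.0 to 42.6 CPM in females and 10.6 to 29.1 CPM in males (1.89-fold higher in females), Npas2 was 2.67-fold higher and Per3 2.47-fold lower in females. None of Dbp, Nr1d1 and Arntl overlapped between the sexes, while Npas2 and Per3 did. The sexes did not overlap in 5 of the 13 tested clock genes, and in 22.8% of all tested genes. Per2, the most abundant clock gene that did not pass, had a median of 57.0 CPM in females and 50.7 CPM in males. The part of sampling time in the differences of the 10 genes was not tested.

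Markers of liver zones and of other cells were read beside the 10 genes. Among all tested genes 43.2% passed in either direction, 20.5% higher and 22.7% lower in females. Periportal markers were lower in females in 6 of 9 genes, 66.7%, with summed levels of 7463 to 8214 CPM in females and 9056 to 12843 CPM in males. With 1 animal left out, 5 to 6 of them were lower, and Ass1 no longer passed in 8 of the 12 cases. The largest changes were those of Sds (36.3-fold lower), Pck1 (3.73-fold), Gls2 (2.14-fold) and Arg1 (1.66-fold). Female 12 had 1743 CPM of Pck1 against 257 to 582 CPM in the other females, and without female 12 the log2 fold change of Pck1 was -2.52 in place of -1.90. Pericentral markers passed in 71.4%, 4 of 7 higher in females and 1 lower (log2 fold change 2.57 for Oat, -1.25 for Rhbg, 0.68 for Axin2 and 0.64 for Slc1a2), with sums of 2472 to 3237 CPM in females and 1223 to 1932 CPM in males. With 1 animal left out, 3 to 5 pericentral markers were higher in females, and Cyp1a2 no longer passed in 8 of the 12 cases.

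Among bile duct markers 1 of 5 (20%) was lower in females, against 22.7% of all tested genes. The sums were 19.9 to 25.4 CPM in females and 26.0 to 36.6 CPM in males. The gene that passed was Slc10a2, the sodium-dependent bile acid carrier of bile duct and ileum, at 0.0752 to 0.593 CPM in females and 2.73 to 4.77 CPM in males (26 counts over the females and 416 over the males). Slc10a2 is part of the bile duct sums, and the other 4 tested markers did not pass. Krt19, a defining bile duct keratin, had a median of 2.01 CPM in females and 1.48 CPM in males (edgeR adjusted p = 0.974). Of 2 tested intestine markers 1 (50%), again Slc10a2, was lower in females, and the ileal bile acid binding protein gene Fabp6 was at 0 in every library.

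In macrophage, stellate and hepatocyte markers the shares that passed were close to or below the 43.2% of all tested genes. Macrophage markers passed in 20%, 2 of 10 higher in females (Cd163 and Clec4f), with sums of 214 to 320 CPM in females and 127 to 506 CPM in males. Their number was 9 without male 4, and 1 when female 8 or 12 or male 1, 3 or 6 was left out. Stellate cell markers passed in 37.5%, 1 of 8 higher (Reln) and 2 lower (Dcn and Rgs5) in females, with sums of 178 to 252 CPM in females and 143 to 264 CPM in males. Dcn no longer passed when any 1 animal but females 8 and 12 and male 6 was left out, and without male 4 the number of stellate markers higher in females was 3. Hepatocyte markers passed in 45.5%, 2 of 11 higher (Hnf4a and Alb) and 3 lower (Serpina1, Ttr and Fgb) in females. Alb no longer passed when female 10, 12 or 13 or male 1, 2 or 3 was left out, and Fgb when female 7, 8, 9 or 10 was left out.

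The next shares are again set against the 43.2% of all tested genes that passed, 20.5% higher and 22.7% lower in females. Sinusoidal endothelial markers were higher in females in 3 of 4 genes (75%), Flt4, Fcgr2b and Lyve1. Their sums were 76.1 to 94.5 CPM in females and 28.1 to 76.0 CPM in males, and Lyve1 no longer passed without female 8 or male 2. Exocrine pancreas markers passed in 66.7%, with 1 of 3 higher (Cpa1) and 1 lower (Cela1) in females. The pancreas sums were 6.91 to 39.6 CPM in females and 11.5 to 14.2 CPM in males. Acute phase genes passed in 64.3%, 7 of 14 lower and 2 higher in females. Their sums were 30861 to 40074 CPM in females and 38757 to 44277 CPM in 5 males, against 89927 CPM in male 4. Without male 4 the log2 fold change was -0.61 in place of -1.54 for Orm1, -1.14 in place of -2.62 for S100a9, -0.87 in place of -1.10 for Serpina3n and -0.52 in place of -0.90 for Hp. With 1 animal left out, 4 to 7 acute phase genes were lower and 0 to 2 higher in females. Orm1 did not pass without female 7, 12 or 13, nor S100a9 without female 8 or 13. The part of zonation, cell makeup or the acute phase in the differences of the 10 genes was not tested. Without male 4, without female 12 or without both, 6 of the 10 genes were lower in females, as with all 12 animals.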

How the data were processed

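RNA of 12 livers had been sequenced, 1 library per animal, from an Illumina TruSeq RNA kit with 1 µg of total RNA, per the labels' protocols. Bowtie2 2.0.2, DESeq and the rat build rn4 are named in the submitters' processing notes. The counting program, the annotation and the strand setting are not named there (not given in the sources used here). Whether reads antisense to a gene were counted for it therefore cannot be told. The authors deposited raw read counts per gene symbol. The 5 rows that name no gene held 27.1% to 31.7% of counts and were left out, among them reads that fitted several genes (0.359% to 0.388% in females and 1.24% to 2.20% in males).

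Counts were tested in edgeR 4.0.16 (R 4.3.3) with filterByExpr (minimum count 10, minimum total 15), TMM factors and the robust quasi-likelihood F test of sex, adjusted by Benjamini-Hochberg over 9943 genes. CPM are scaled by the TMM factors, and SE is the log2 fold change over the square root of F. Ratios had 0.5 counts added to each gene and were compared over all 924 assignments of animals, where the smallest 2-sided p is 0.00216. Correlations used all 720 pairings of 6 animals. Alternatives were RLE, upper quartile and library-total scaling, 2 other filters, DESeq2 1.42.0, limma-voom (limma 3.58.1) and leaving animals out. Each of the 30 pairs of libraries of 1 sex differed beyond sampling noise (chi-square of at least 6.02 per degree of freedom).

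The genes and lists were chosen with earlier results of these data known. The naming rule took all 10 genes, the up to 4 members of each list that passed with the largest fold change, its most abundant other member, and the 3 genes nearest to Cyp7a1, Cyp8b1 and Nr0b2. In the marker and acute phase lists the most abundant other member is left out. Acox2, Scp2, Slc27a2, Acot8, Por, Cyp39a1, Stard5, Abcb4, Abcg5, Hnf4a and Alb were named after their values were seen. So were Rxra, Fgfr4, Nr5a2, Arntl, Fgf15, Fabp6, Krt19, Ass1, Cyp1a2 and Cd5l. All 10 symbols, and 15931 of all 16478 (96.7%), matched RefSeq on GRCr8, which gave the promoter windows. Counting error alone limits low values, and 3 counts equal 0.103 to 0.444 CPM.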

Additional observations from a re-analysis of the deposited data

Results flagged for a closer look

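Among 28 sets of 6 animals (the 10 genes and the 4 ratios in each sex), 3 held an animal far from the others of its sex, by the gap to its nearest neighbour relative to the whole range. Chance gives about 1 in 20 such sets where values are not skewed. Ratios are skewed and these share Cyp7a1, so that rate may not apply. Female 12 had a Cyp8b1 to Cyp7a1 ratio of 22.4, against 2.98 to 6.10 in the other females, and a Cyp27a1 to Cyp7a1 ratio of 8.20, against 1.65 to 3.46. Male 2 had a Cyp8b1 to Cyp7a1 ratio of 30.4, against 7.55 to 10.2 in the other males. With the ratios on the log2 scale, on which the sexes were compared, the gap over the range was 0.645 for the first of these, 0.538 for the second and 0.780 for the third, and the second no longer reached the limit. Female 12 and male 2 had the lowest Cyp7a1 of their sex, at 29.6 CPM and 32.2 CPM.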

How the results depend on the processing

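Under 20 alternatives (scaling, filter, tool, each animal left out, male 4 and female 12 left out), Akr1d1, Amacr, Baat, Cyp7b1 and Nr0b2 stayed lower in females with adjusted p under 0.05. Cyp8b1 kept its direction in all 20 (log2 -0.87 to -0.56) but passed in 9, failing with no filter (edgeR adjusted p = 0.0601), with limma-voom (0.0521) and without 9 of the single animals. Cyp7a1 (0.46 to 0.83), Cyp27a1 (0.06 to 0.13), Slc27a5 (0.05 to 0.14) and Nr1h4 (-0.05 to 0.05) passed in none. When 1 animal was left out, 5 to 6 of the 10 genes were lower and 0 higher in females. Over all genes the number that passed was 3855 to 4634.

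With each animal left out, the log2 difference (females minus males) was -2.19 to -1.57 for the Cyp7b1 to Cyp7a1 ratio (exact permutation, adjusted p under 0.05 in 2 of 12), -1.73 to -1.15 for Nr0b2 to Nr1h4 (3 of 12), -1.68 to -0.95 for Cyp8b1 to Cyp7a1 (1 of 12) and -0.79 to -0.32 for Cyp27a1 to Cyp7a1 (0 of 12). Fewer animals leave fewer assignments for an exact test. Without male 4 and female 12 the Cyp8b1 to Cyp7a1 ratio differed by -1.70 (exact permutation, adjusted p = 0.0317) and the Nr0b2 to Nr1h4 ratio by -1.58 (0.0529).

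Without the 2 animals farthest in x, r was 0.932 for Nr0b2 with Cyp8b1 in females (-0.0336 with all), -0.0737 for Nr0b2 with Cyp7a1 in males (0.417 with all), -0.879 for Nr1h4 with Nr0b2 in females and -0.260 for Nr0b2 with Cyp8b1 in males, with 4 animals each. The cause was not tested. Among the macrophage markers Cd5l had a log2 fold change of -0.23, of -0.39 to 0.52 with 1 animal left out (0.52 without male 4), and of 0.49 without male 4 and female 12. No paired analysis was possible because females and males share no animal numbers.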
